A study of Mus musculus with 6 samples.

Results

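Solute carriers of the SLC1, SLC2, SLC3, SLC6, SLC7, SLC16, SLC36, SLC38 and SLC43 families move amino acids, sugars, lactate and related molecules across membranes. Their genes were compared between pools sorted as satellite cells from pharyngeal and limb muscle. Members were taken by symbol from the array's annotation, and 164 of 45281 probes, for 83 gene symbols, carried such a name. Of these, 2 share only the name: Slc7a6os lies on the opposite strand beside Slc7a6, and Slc2a4rg-ps is a pseudogene. A probe was above background on an array where its detection p was under 0.05, and 51 of the 83 genes had a probe above background on at least 3 of the 6 arrays and were tested, 29 of them through a probe above background on all 6. The other 32 genes were not tested, 19 because no probe rose above background on any array and 13 because their probes did so on 1 or 2 arrays.

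The pharyngeal group held 3 pools of sorted satellite cells from pharyngeal muscle and the limb group 3 pools from the gastrocnemius and quadriceps, all from male C57BL/6 mice aged 8 to 10 weeks. Each pool combined 150000 to 200000 sorted cells from 10 to 30 mice, so an array averages over animals. The sources used here do not give the markers of the sort. Satellite cells are the muscle stem cells that lie beside the fibre and divide when it is damaged. RNA was amplified in a single round and hybridised to an Illumina Mouse WG-6 v2.0 BeadChip, with the pharyngeal pools at positions 1 to 3 and the limb pools at positions 4 to 6 of one chip, so position and group cannot be told apart.

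Facilitative GLUT carriers (SLC2) let glucose and other hexoses down their gradient, and proton-coupled monocarboxylate carriers (SLC16) include those that exchange lactate and pyruvate. Amino acids enter through sodium-driven carriers (SLC1, SLC6, SLC38) and are traded across the membrane by exchangers, some of which are light chains (SLC7) bound to a glycoprotein heavy chain (SLC3). In muscle stem cells these proteins supply glycolysis, protein synthesis and the mTORC1 growth pathway, and the transcription factor ATF4 raises several of the amino acid carriers when amino acids run short.

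Levels below are log2 intensities after background correction and quantile normalization, each difference is pharyngeal minus limb with a 95% interval from limma, and adjusted p-values cover all 11262 genes tested. Arrays had 20919 to 22793 probes above background, and they correlated at 0.886 to 0.915 within the pharyngeal group, 0.959 to 0.968 within the limb group and 0.858 to 0.885 between groups. All 18 satellite cell markers were above background on every limb array and 17 of 18 on every pharyngeal array. The mean of the satellite cell list ran from 7.07 to 7.52 on pharyngeal arrays and from 8.28 to 8.62 on limb arrays, and 8 of 18 genes were lower at an adjusted p under 0.05. Over all genes tested, 1.71% were called higher and 1.61% lower. Epithelial markers averaged 6.52 to 8.47 on pharyngeal arrays and 4.69 to 4.81 on limb arrays, with 9 of 17 tested genes higher, and 8 of the 19 (Epcam, Krt4, Krt7, Krt13, Krt15, Krt17, Cldn3 and Cldn4) were above background on no limb array. Of the 17 differences 16 were positive and 1 negative, Krt19 at -0.74 (adjusted p = 0.464). Thyroid and parathyroid markers averaged 6.81 to 8.72 on pharyngeal arrays and 4.29 to 4.32 on limb arrays, with 3 of 4 tested genes higher. All 4 (Tg, Pth, Chga and Nkx2-1) were above background on no limb array. They, and those of the 8 epithelial genes that were tested, entered the test only through the group where they were brighter. Macrophage markers averaged 6.10 to 6.82 on pharyngeal arrays and 5.14 to 5.63 on limb arrays (2 of 8 higher, Lyz1 and S100a9, with a list median of 0.27), while Csf1r, Adgre1, Aif1 and Cd14 differed by 0.01, 0.19, -0.05 and -0.17 and Itgam was above background on no array. S100a9 too was above background on no limb array and entered the test only through the pharyngeal group. Myofibre markers averaged 6.39 to 6.94 on pharyngeal arrays and 5.79 to 6.06 on limb arrays (2 of 9 higher, Myh1 by 2.12 and Tnni2 by 2.12). Of the 9 differences 7 were positive and 2 negative, Actn3 at -1.67 without overlap (adjusted p = 0.113) and Mb at -0.62. Tenocyte markers averaged 6.34 to 6.65 on pharyngeal arrays and 7.86 to 8.67 on limb arrays (4 of 7 lower, 1 higher). No gene passed in either direction among endothelial (11 tested), fibro-adipogenic (10), pericyte and smooth muscle (10), Schwann (5) or erythroid (4) markers. What these lists contribute to the transporter values was not tested, and in pooled cells fewer cells of a type and less RNA per cell cannot be told apart.

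Most transporters did not differ detectably between pharyngeal and limb pools. Of the 51 tested genes 1 was higher in the pharyngeal pools, the cationic amino acid carrier Slc7a1, and 2 were lower, the large neutral amino acid carrier Slc43a1 and the hexose carrier Slc2a12. Slc7a1 was above background on no limb array, so it entered the test only through the group where it was brighter. With it the calls made up 5.88% of the members, where 3.32% of all genes tested were called (1.71% higher and 1.61% lower). The 2 groups did not overlap for 13 members (7 higher and 6 lower), or 25.5%, where 26.7% of all genes did not overlap (11.7% higher and 15% lower), so the share was near that of all genes. The median difference was 0.02 over the members and -0.06 over all genes, and 33 members differed by less than 0.5, 12 by 0.5 to 1 and 6 by more than 1. For 20 members the interval lay within 1 of zero in both directions, and for the other 31 it reached past 1 on at least one side.

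**Figure D1:**
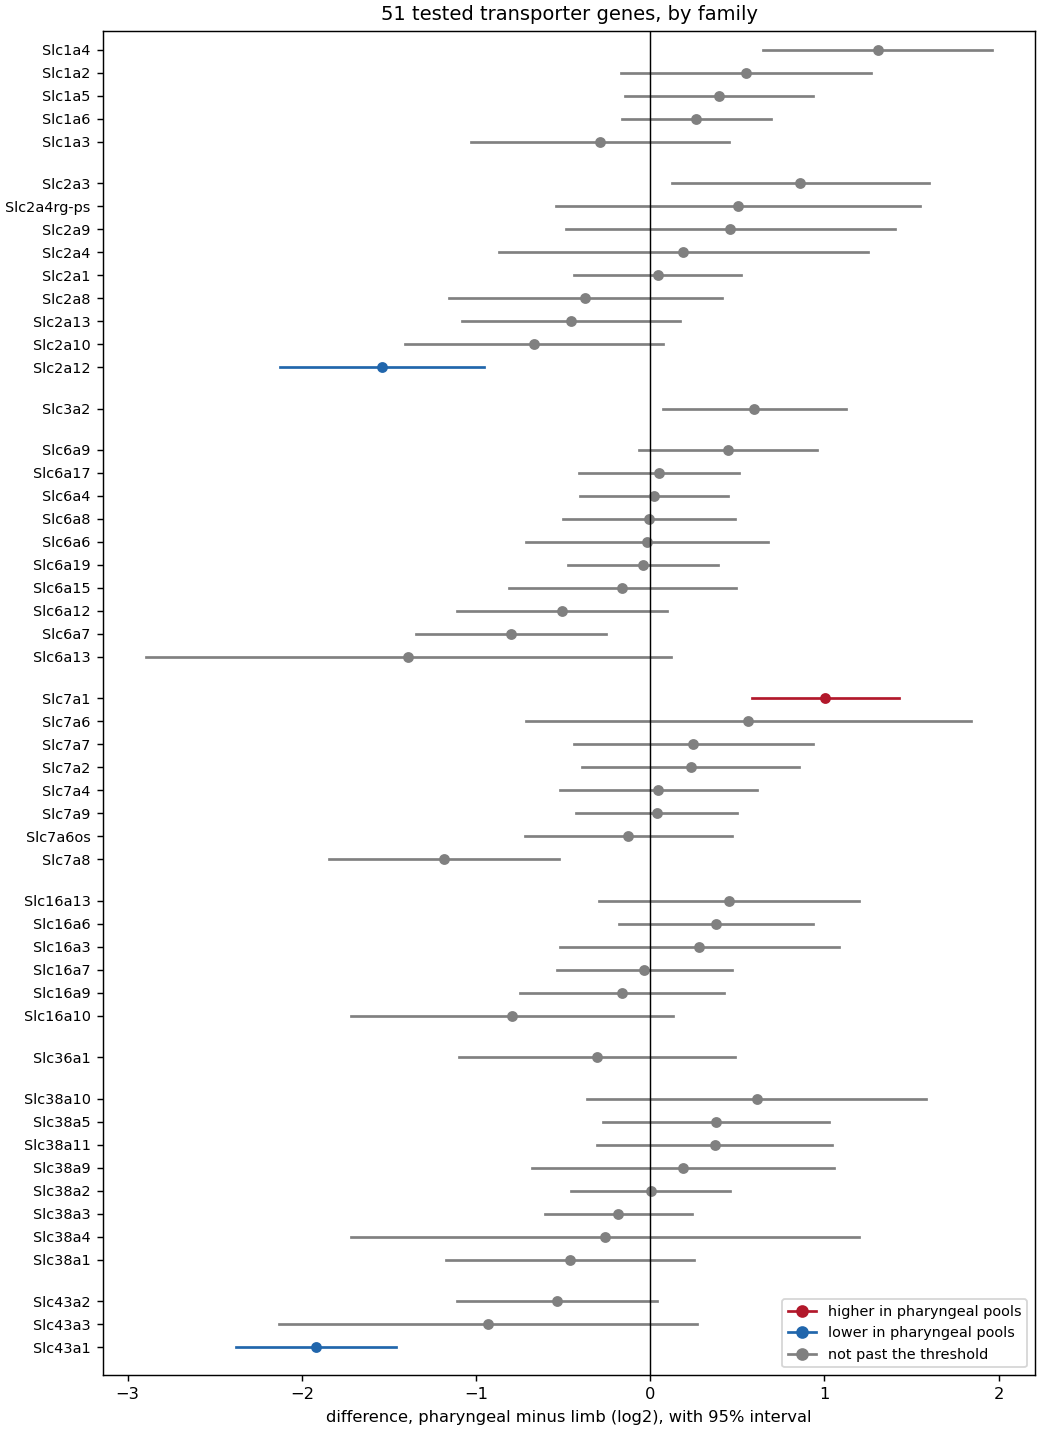
Difference between pharyngeal and limb pools for each of the 51 tested genes, in log2 units with the 95% interval, grouped by family. Slc7a1 (1.01) lies to the right of zero and Slc43a1 (-1.92) and Slc2a12 (-1.54) to the left as the 3 genes past the threshold, and the widest interval belongs to Slc6a13.

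Carriers of large neutral amino acids gave the lowest difference. Slc43a1 (LAT3), a sodium-independent carrier of leucine and other large neutral amino acids, read 5.53, 5.10 and 5.43 in pharyngeal pools 1 to 3, against 7.26, 7.23 and 7.32 in limb pools 1 to 3. All 3 limb arrays lay within 0.1 of each other and far above every pharyngeal array. The difference was -1.92 (interval -2.38 to -1.46), 3.78-fold lower in pharyngeal pools, with an adjusted p of 0.0045. A second Slc43a1 probe read 5.81, 4.46 and 5.68 in pharyngeal pools against 6.22, 6.70 and 6.67 in limb pools, also without overlap, a difference of -1.21 that did not pass over all kept probes (adjusted p = 0.139). Slc43a1 stayed past the threshold in all 18 alternative settings, including each of the 6 fits without 1 array (adjusted p from 0.00238 to 0.0421 over the 18), though in the authors' processed values the difference was -0.97.

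The region at the start of Slc43a1 is shown because this gene carries the clearest difference. Its promoter window (RefSeq, GRCm38.p6, chr2:84840073-84840352, plus strand, 250 bases before to 30 after the annotated start) holds one CACGTG, the E-box bound by factors such as Usf and Myc family proteins, at position -64, in capitals.
Slc43a1: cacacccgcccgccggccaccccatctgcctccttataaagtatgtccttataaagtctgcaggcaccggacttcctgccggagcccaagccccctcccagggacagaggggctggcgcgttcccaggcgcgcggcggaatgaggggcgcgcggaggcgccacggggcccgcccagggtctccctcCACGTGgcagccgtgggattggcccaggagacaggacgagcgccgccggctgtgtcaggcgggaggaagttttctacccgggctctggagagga

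The other system L genes tested did not pass the threshold. Slc7a5 (LAT1) had no probe under that name here and was not tested. Slc7a8 (LAT2), a light chain that exchanges neutral amino acids, read 5.05, 4.29 and 4.49 in pharyngeal pools, where it was above background on 1 array, against 5.41, 6.12 and 5.87 in limb pools. Every limb value was above every pharyngeal one, and the difference was -1.19 (interval -1.85 to -0.53, adjusted p = 0.0716). The second kept Slc7a8 probe read 4.28, 4.59 and 4.31 in pharyngeal pools against 5.58, 5.59 and 5.81 in limb pools, at least 2.06-fold lower in pharyngeal pools (adjusted p = 0.0212 when all kept probes were tested). No pharyngeal array measured that probe above background, so it entered the test through the limb group alone. Slc7a8 passed in 4 of 17 alternative settings.

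Slc3a2 (4F2hc, CD98), the heavy chain that carries such light chains to the cell surface, ran the other way, at 9.28, 9.48 and 9.06 in pharyngeal pools against 8.42, 8.64 and 8.97 in limb pools. These groups were separated only by the gap between pharyngeal pool 3 and limb pool 3, and the difference of 0.60 (interval 0.07 to 1.12) had an adjusted p of 0.200. Slc43a2 (LAT4), a relative of Slc43a1 with similar substrates, read 6.02, 5.72 and 6.50 in pharyngeal pools against 6.75, 6.48 and 6.62 in limb pools. Pharyngeal pool 3 fell among the limb values, and the difference was -0.54 (interval -1.11 to 0.04, adjusted p = 0.275). Over the 4 genes of this group with a named probe, 1 passed as lower, 0 as higher, and the median difference was -0.86, beside -0.06 for all genes.

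**Figure D2:**
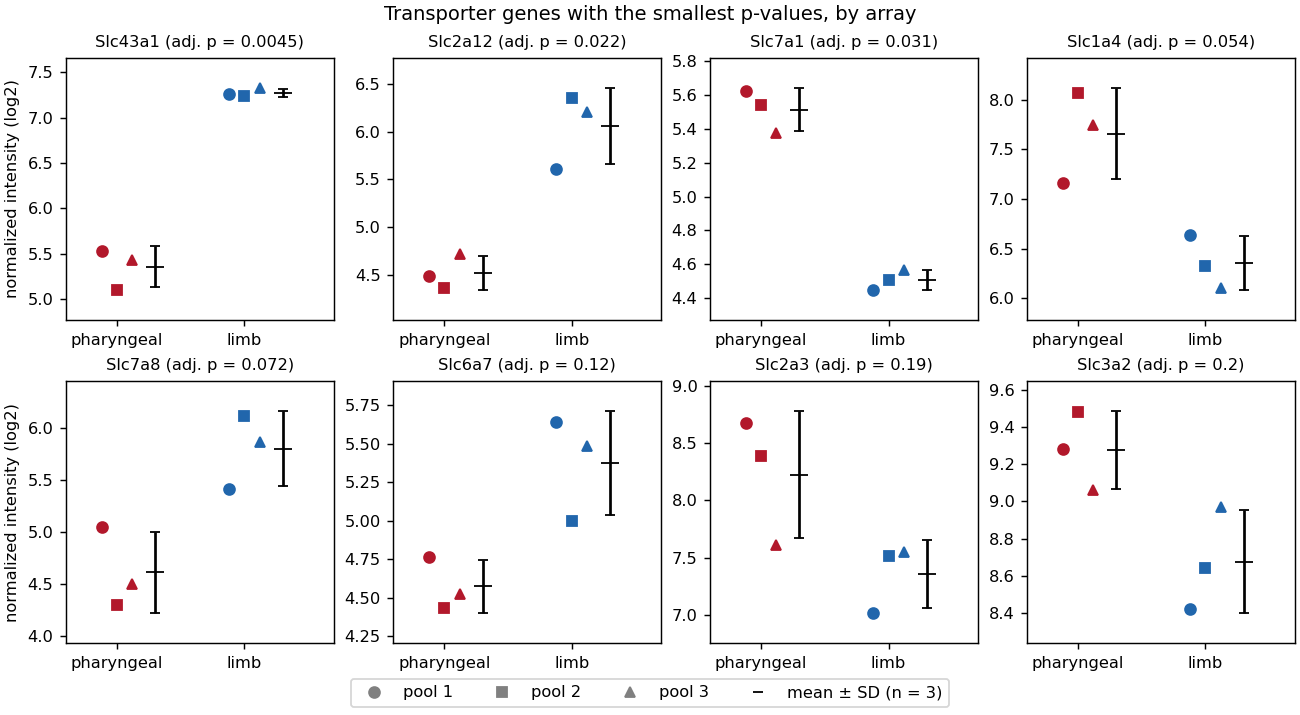
Normalized log2 intensity on each array (circles, squares and triangles for pools 1, 2 and 3) for the 8 transporter genes with the smallest p-values, with mean and SD of 3 arrays at the side and a separate axis range for each panel. The groups do not overlap in any of these panels, and the limb values of Slc43a1 are the most tightly grouped, at 7.23 to 7.32.

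Carriers of cationic amino acids included the single gene that was higher. Slc7a1 (CAT1), which brings arginine, lysine and ornithine into the cell, read 5.62, 5.54 and 5.37 in pharyngeal pools, against 4.45, 4.51 and 4.56 in limb pools. Unnormalized intensities of this probe were 136, 127 and 119 in pharyngeal pools against 92.8, 97.5 and 96.7 in limb pools, so the signal was close to the floor of the array. It was above background on all 3 pharyngeal arrays and on no limb array.

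Pharyngeal pools averaged 5.51 ± 0.13 for Slc7a1 and limb pools 4.51 ± 0.06 (SD, n = 3 each), at least 1.89-fold higher, with an adjusted p of 0.0308. Slc7a1 did not pass without limb pool 1, 2 or 3 (adjusted p = 0.124, 0.157 and 0.152), it fell below the filter without any 1 pharyngeal pool, and in the authors' processed values the difference was 0.32 (adjusted p = 0.0927). It also did not pass with a background offset of 50, without background correction or with a term for replicate number. In all, Slc7a1 passed in 7 of 14 alternative settings. Its second probe was above background on a single pharyngeal array.

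The start of Slc7a1 is shown as that of the gene called higher (chr5:148399875-148400154, minus strand). It holds one CAGCTG, the E-box form favoured by MyoD family factors, at position -181, in capitals, and a second RefSeq start of the gene holds none of the motifs searched.
Slc7a1: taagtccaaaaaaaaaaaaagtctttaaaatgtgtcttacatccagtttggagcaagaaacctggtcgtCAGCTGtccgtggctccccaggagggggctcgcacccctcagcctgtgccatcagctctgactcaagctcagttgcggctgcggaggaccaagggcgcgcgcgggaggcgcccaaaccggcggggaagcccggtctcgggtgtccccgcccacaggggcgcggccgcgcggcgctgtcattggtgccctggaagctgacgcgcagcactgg

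The other carriers of the cationic and y+L group did not pass the threshold. With Slc7a1 counted, the 6 tested genes of the group had positive differences, from 0.04 to 1.01 with a median of 0.24. Over all genes, 5007 of 11262 were positive. Slc7a1 entered through the pharyngeal group alone. Slc7a4 and Slc7a9 differed by only 0.05 and 0.04, at 4.69 against 4.65 and 4.70 against 4.66, near the floor of the array. Whether the group differs as a set was not tested. Slc7a2 (CAT2), a second arginine carrier, had 5 kept probes whose differences ran from -0.18 to 0.40, and the one used read 6.98, 7.70 and 7.20 in pharyngeal pools against 7.14, 7.33 and 6.72 in limb pools. Slc7a6 and Slc7a7, light chains that exchange cationic for neutral amino acids, differed by 0.56 (interval -0.71 to 1.84) and 0.25 (interval -0.44 to 0.93), with overlapping groups. In Slc7a6 a single array stood apart, 6.86 in pharyngeal pool 2 against 4.58 and 5.28 in the other pharyngeal pools and 4.58 to 5.28 in limb pools. A second probe of Slc7a6 differed by -0.01, and a second probe of Slc7a7 by -0.44, so neither gene had a settled direction.

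Slc7a11 (xCT), which imports cystine in exchange for glutamate and so feeds glutathione synthesis, was not tested. It has 5 probes, none above background on more than 1 pharyngeal array or on any limb array. Unnormalized intensities of the first were 109, 94.4 and 96.9 in pharyngeal pools against 89.1, 89.7 and 90.8 in limb pools.

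Sodium-driven carriers of small neutral amino acids had the highest difference among the tested members. Slc1a4 (ASCT1), an exchanger of alanine, serine, cysteine and threonine, read 7.17, 8.06 and 7.75 in pharyngeal pools, against 6.64, 6.33 and 6.10 in limb pools. The groups did not overlap, with pharyngeal pool 1 and limb pool 1 nearest to each other. The difference of 1.31 (interval 0.65 to 1.96) was 2.47-fold, and its adjusted p of 0.0544 missed the threshold. Slc1a4 passed in 7 of 18 alternative settings, among them the fit without pharyngeal pool 1 (1.55, adjusted p = 0.0282), and the adjusted p ran from 0.0266 to 0.218 over the 18.

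The start of Slc1a4 (chr11:20332684-20332963, minus strand) is shown because it holds a match to TGATGNAA, the core of the amino acid response element bound by ATF4 with a C/EBP partner. The match lies on the opposite strand from position -4, in capitals. Of the 35 tested genes with a window 2 held this motif, and the other was Slc7a7, whose kept probes differed in sign. A link between the motif and these differences was not tested.
Slc1a4: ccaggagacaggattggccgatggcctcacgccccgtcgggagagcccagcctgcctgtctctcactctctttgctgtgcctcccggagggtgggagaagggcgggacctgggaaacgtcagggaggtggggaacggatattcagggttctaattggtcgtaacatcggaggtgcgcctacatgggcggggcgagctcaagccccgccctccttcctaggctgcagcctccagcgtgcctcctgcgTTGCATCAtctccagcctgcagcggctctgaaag

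Slc1a5 (ASCT2), which carries glutamine, read 5.46, 4.77 and 4.91 in pharyngeal pools against 4.73, 4.61 and 4.62 in limb pools. Each pharyngeal value was above each limb value, by as little as 0.04 between the nearest arrays, and the difference was 0.39 (interval -0.15 to 0.94, adjusted p = 0.393). Slc1a2, a glutamate carrier best known from astrocytes, read 5.97, 4.81 and 5.31 in pharyngeal pools against 4.67, 4.98 and 4.79 in limb pools, with overlap and a difference of 0.55 (adjusted p = 0.372). Of the 5 tested SLC1 genes 4 had a positive difference, 0 passed, and the median was 0.39.

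Slc38a2 (SNAT2), a carrier of small neutral amino acids that is induced by amino acid shortage, did not differ detectably. It read 9.89, 9.70 and 9.66 in pharyngeal pools against 9.92, 9.77 and 9.55 in limb pools, and the difference was 0.00 (interval -0.45 to 0.46). Its other 2 probes differed by -0.02 and 0.02. Slc38a1 (SNAT1), a glutamine carrier, read 5.07, 6.10 and 5.13 in pharyngeal pools against 5.89, 5.75 and 6.05 in limb pools, with pharyngeal pool 2 the highest of the 6, and the difference was -0.46 (interval -1.17 to 0.25, adjusted p = 0.451). Its other 2 probes differed by -0.63 and 0.07.

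Over the 8 tested SLC38 genes 0 passed in either direction and differences ran from -0.46 to 0.61. Slc38a9, the lysosomal carrier through which arginine is reported to mTORC1, differed by 0.19 (interval -0.68 to 1.06), again with pharyngeal pool 2 apart at 6.18. Slc38a4, a system A carrier best known from liver, had the widest interval of these, -1.72 to 1.20. The single tested SLC36 gene, the lysosomal proton-coupled carrier Slc36a1, differed by -0.31 (interval -1.10 to 0.48).

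SLC6 carriers, driven by sodium and chloride, held no gene past the threshold. Slc6a7 (PROT), a proline carrier, read 4.76, 4.43 and 4.52 in pharyngeal pools, where it was above background on 1 array, against 5.64, 4.998 and 5.48 in limb pools. The groups did not overlap, and the difference was -0.80 (interval -1.34 to -0.25, adjusted p = 0.115). Slc6a13 (GAT2), a carrier of GABA and taurine, read 7.50, 5.15 and 4.90 in pharyngeal pools against 7.30, 7.51 and 6.90 in limb pools.

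Pharyngeal pool 1 lay at the limb level for Slc6a13 and the other 2 pharyngeal pools over 1.7 below it. The difference was -1.39 over all pools (interval -2.90 to 0.12, adjusted p = 0.283) and -2.21 without pharyngeal pool 1 (adjusted p = 0.00993), so this value turned on 1 library. Slc6a12 (BGT1), the betaine carrier and the neighbouring gene on chromosome 6, differed by -0.51 and did not overlap, with its probe above background on 1 of 3 pharyngeal and 3 of 3 limb arrays.

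No carrier of glycine, taurine or creatine passed the threshold. Slc6a9 (GlyT1), the glycine carrier, read 8.79, 9.27 and 8.72 in pharyngeal pools against 8.56, 8.55 and 8.33 in limb pools, without overlap, and the difference was 0.45 (interval -0.06 to 0.96, adjusted p = 0.305). Slc6a8, the creatine carrier of muscle, read 7.12, 6.62 and 6.82 in pharyngeal pools against 6.79, 6.76 and 7.03 in limb pools, a difference of -0.01 (interval -0.50 to 0.49). Over the 10 tested SLC6 genes 0 passed, 3 differences were positive and 7 negative, and the median was -0.03.

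Slc6a6 (TauT), the taurine carrier, gave 2 answers from its 2 kept probes. The one used read 8.95, 10.05 and 9.74 in pharyngeal pools against 9.50, 9.58 and 9.70 in limb pools, with overlap and a difference of -0.02 (interval -0.72 to 0.68). The other read 6.74, 6.20 and 5.68 in pharyngeal pools against 5.01, 5.42 and 4.41 in limb pools, without overlap, a difference of 1.26 that did not pass over all kept probes (adjusted p = 0.115). Which transcript each probe reads was not tested.

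Among the sugar carriers, Slc2a12 (GLUT12), a facilitative hexose carrier found in insulin-sensitive tissues, was lower in pharyngeal pools. It read 4.48, 4.37 and 4.72 in pharyngeal pools, above background on pool 3 alone, against 5.61, 6.36 and 6.21 in limb pools, where it was above background on all 3 arrays. Unnormalized intensities were 103, 93.7 and 105 in pharyngeal pools against 116, 160 and 145 in limb pools. Limb pool 1 was the lowest of its group and still above every pharyngeal pool.

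The difference for Slc2a12 was -1.54 (interval -2.12 to -0.95), with an adjusted p of 0.0217. No fold is given, because only 1 of the 3 pharyngeal arrays measured this probe above background and the others lay near the floor of the array. It passed in 13 of 17 alternative settings, but not without pharyngeal pool 2, limb pool 2 or limb pool 3 (adjusted p = 0.0570, 0.119 and 0.126) or with a term for replicate number (0.0646), and in the authors' processed values it was -0.56 (adjusted p = 0.0483). Its start (chr10:22644761-22645040, plus strand) is shown for comparison with the other called genes and holds none of the 3 motifs searched.
Slc2a12: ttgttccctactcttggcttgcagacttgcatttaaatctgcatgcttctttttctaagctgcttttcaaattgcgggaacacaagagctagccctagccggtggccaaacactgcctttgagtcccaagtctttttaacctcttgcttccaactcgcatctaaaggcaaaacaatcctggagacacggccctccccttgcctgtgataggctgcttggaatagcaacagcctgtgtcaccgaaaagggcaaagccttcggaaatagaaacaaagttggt

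Other sugar carriers did not pass. Slc2a3 (GLUT3), a high-affinity glucose carrier, read 8.68, 8.39 and 7.61 in pharyngeal pools against 7.02, 7.52 and 7.55 in limb pools. Pharyngeal pool 3 lay only 0.06 above limb pool 3, and the difference was 0.86 (interval 0.13 to 1.60, adjusted p = 0.190). Slc2a1 (GLUT1), the basal glucose carrier, read 10.31, 10.54 and 10.50 in pharyngeal pools against 10.68, 10.32 and 10.22 in limb pools, overlapping, with a difference of 0.04 (interval -0.44 to 0.52).

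Slc2a4 (GLUT4), the insulin-responsive carrier of mature muscle, read 6.52, 5.03 and 4.76 in pharyngeal pools against 4.92, 5.31 and 5.51 in limb pools. Pharyngeal pool 1 was over 1 above each other array, and the difference of 0.19 (interval -0.87 to 1.25) became -0.35 without that pool, still short of the threshold (adjusted p = 0.482). Slc2a10 (GLUT10) read 4.84, 5.21 and 5.79 in pharyngeal pools against 5.90, 5.56 and 6.37 in limb pools, with overlap and a difference of -0.67 (interval -1.41 to 0.08, adjusted p = 0.294). Over the 8 tested SLC2 genes, with Slc2a4rg-ps set aside, 1 passed as lower and 0 as higher, with 4 positive and 4 negative differences and a median of -0.17.

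Lactate carriers showed no detectable difference. Slc16a3 (MCT4), which exports lactate from glycolytic cells, read 5.46, 4.40 and 5.66 in pharyngeal pools against 4.69, 5.08 and 4.91 in limb pools. Pharyngeal pools lay on both sides of the limb values, and the difference was 0.28 (interval -0.52 to 1.08, adjusted p = 0.700). Slc16a7 (MCT2), a high-affinity monocarboxylate carrier, differed by -0.03 (interval -0.54 to 0.47). Slc16a1 (MCT1) was above background on no array, with unnormalized intensities of 99.8, 90.5 and 100.02 in pharyngeal pools against 88.7, 97.9 and 96.7 in limb pools, so its level was not measured.

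Among the 4 other tested SLC16 genes 0 passed and differences ran from -0.79 to 0.45. The lowest, Slc16a10 (TAT1), a carrier of aromatic amino acids, read 4.61, 5.91 and 5.30 in pharyngeal pools against 5.60, 5.95 and 6.65 in limb pools, overlapping (adjusted p = 0.314). A second kept Slc16a10 probe read 4.35, 4.42 and 4.30 in pharyngeal pools against 5.24, 5.14 and 4.77 in limb pools, without overlap. No pharyngeal array measured that probe above background, and it did not pass over all kept probes (adjusted p = 0.134). Slc16a11 and Slc6a14, an epithelial carrier of neutral and cationic amino acids, were each above background on 2 of 3 pharyngeal arrays and on no limb array and were not tested.

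**Figure D3:**
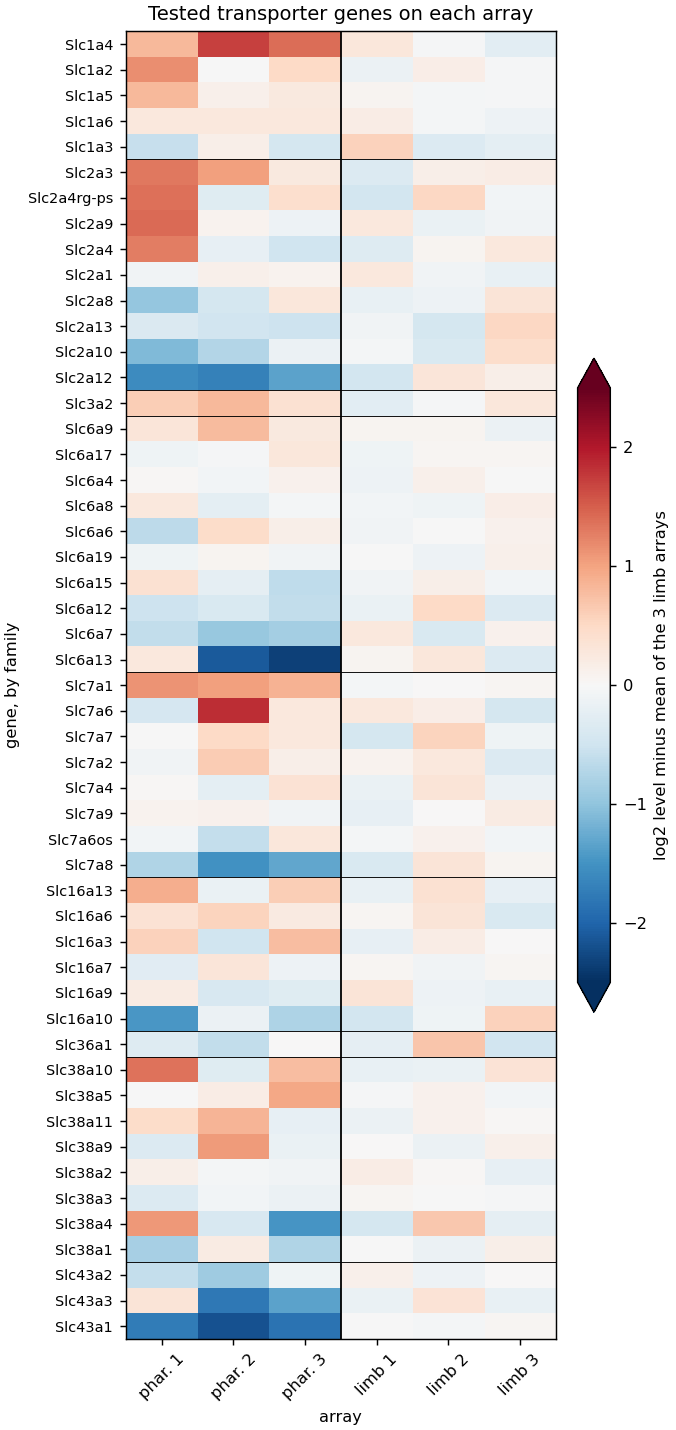
Level of each tested gene on each array, as log2 level minus the mean of the 3 limb arrays, with pharyngeal arrays in the left 3 columns and limb arrays in the right 3 and genes grouped by family. Slc43a1 and Slc2a12 are blue on all 3 pharyngeal arrays, Slc7a1 and Slc1a4 red on all 3, and Slc6a13, Slc43a3, Slc2a4, Slc2a9 and Slc38a4 differ between pharyngeal pool 1 and the other 2.

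The pharyngeal pools differed among themselves more than the limb pools did. The median SD over the members was 0.38 in the pharyngeal group and 0.27 in the limb group, beside 0.36 and 0.22 over all genes. For 5 members, Slc2a4, Slc2a9, Slc38a4, Slc43a3 and Slc6a13, pharyngeal pool 1 read more than 1 above both other pharyngeal pools. That is 9.8% of the members beside 3.28% of all genes. Pool 1 read more than 1 below both for 0 members, beside 3.87% of all genes. Slc43a3, a purine nucleobase carrier despite its family name, read 7.66, 5.56 and 6.00 in pharyngeal pools against 7.18, 7.67 and 7.16 in limb pools. Its difference was -0.93 with all pools (interval -2.13 to 0.27, adjusted p = 0.366) and -1.56 without pharyngeal pool 1 (adjusted p = 0.0335). A second kept Slc43a3 probe read 4.85, 4.53 and 5.14 in pharyngeal pools against 5.58, 5.60 and 6.02 in limb pools. Its groups did not overlap, pool 1 lay between the other pharyngeal pools, and the difference was -0.89 (adjusted p = 0.106 over all kept probes). These 5 genes were picked out after their values were seen.

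Promoter windows were searched for 3 motifs on both strands, CACGTG and CAGCTG, which read the same on either strand, and TGATGNAA. CACGTG and CAGCTG cannot overlap each other, and TGATGNAA can share end bases with either. RefSeq windows of 300 bases were available for 35 of the 51 tested genes (54 windows), and 7.41% of those held CACGTG, 18.5% CAGCTG and 5.56% TGATGNAA, where 7.15%, 16.3% and 3.97% of all 32851 windows did. Of 9 pairs of members that are next to each other among protein-coding genes, 4 had both genes tested, Slc38a1 with Slc38a2 (-0.46 and 0.00), Slc38a2 with Slc38a4 (0.00 and -0.26), Slc6a13 with Slc6a12 (-1.39 and -0.51), and Slc7a6 with Slc7a6os (0.56 and -0.13).

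Genes that act with the carriers were taken from lists. In the amino acid response list, Atf4 and genes tied to it, 2 of 20 tested genes were higher, where 1.71% of all genes were. None was lower, and the median difference was 0.21. Differences ran from -1.07 for Ddit3, a stress-induced transcription factor whose groups overlapped (adjusted p = 0.243), to 1.96, and 6 of the 20 were negative. Stc2 (-0.93, adjusted p = 0.0927) and Vldlr (-0.45, adjusted p = 0.265) read lower in every pharyngeal pool than in any limb pool without passing, and Atf4 itself differed by 0.01. Asns, which makes asparagine from aspartate and glutamine, read 7.11, 7.07 and 7.33 in pharyngeal pools, against 5.51, 5.03 and 5.10 in limb pools. Its groups lay far apart, and the difference of 1.96 was 3.88-fold (adjusted p = 0.00497, past the threshold in all 18 alternative settings). Mthfd2, a mitochondrial folate enzyme of one-carbon metabolism, read 7.38, 7.68 and 7.38 in pharyngeal pools against 6.09, 6.04 and 6.02 in limb pools, also apart, a difference of 1.43 (adjusted p = 0.0103). In the authors' processed values the differences were 0.95 for Asns and 0.84 for Mthfd2, both still past the threshold. Mthfd2 did not pass without limb pool 1, 2 or 3 (adjusted p = 0.0587, 0.0772 and 0.0751). Windows holding TGATGNAA made up 25% of the 24 windows of this list, which was chosen for its ties to ATF4. The window of Asns held the motif and that of Mthfd2 did not. A link between the motif and these differences was not tested.

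The remaining lists held a single call. Of genes of glycolysis and lactate 0 of 20 passed (median -0.05), of amino acid sensing by mTORC1 0 of 23 (median -0.19), and of glutathione synthesis 0 of 7 (median 0.67). In amino acid and creatine metabolism 1 of 16 passed, Ckmt1, a mitochondrial creatine kinase, which read 7.56, 8.59 and 9.97 in pharyngeal pools against 4.30, 4.24 and 4.63 in limb pools, where it was above background on 1 array. That difference was 4.31 (adjusted p = 0.0098) with no overlap between the groups. It was 2.45 in the authors' processed values. Where every array had to detect the probe, another Ckmt1 probe stood in, with a difference of 1.14 (adjusted p = 0.0892). Ckmt1 also did not pass without limb pool 1, 2 or 3 (adjusted p = 0.0587, 0.0630 and 0.0574).

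Of the partner proteins, Emb (embigin), which escorts monocarboxylate carriers to the membrane, read 6.87, 6.85 and 7.42 in pharyngeal pools against 6.43, 5.99 and 5.80 in limb pools. The groups did not overlap, and the difference of 0.97 had an adjusted p of 0.0926. Bsg (basigin), the main partner of Slc16a1 and Slc16a3, had no probe past the filter and was not tested.

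**Figure D4:**
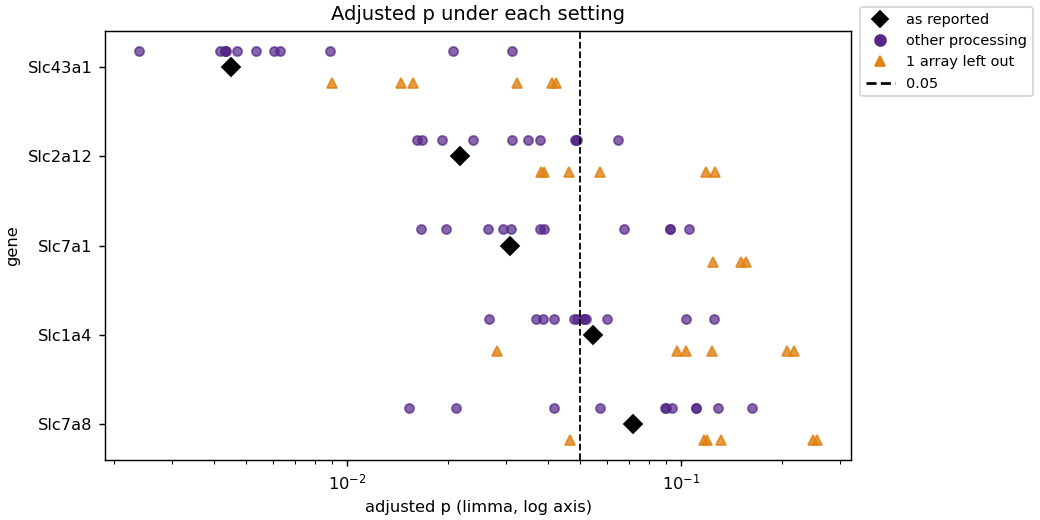
Adjusted p from limma for the 5 transporter genes with the smallest p-values, on a log axis, as reported (diamonds), under other processing (circles) and with 1 array left out (triangles), with the 0.05 threshold dashed. Slc43a1 lies left of the threshold in every setting, Slc2a12 in 13 of 17 and Slc7a1 in 7 of 14.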

How the data were processed

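Total RNA of 6 pools, 3 per group, was measured on 1-colour Illumina bead arrays. The authors deposited an unnormalized intensity and a detection p-value for each of 45281 probes and array, extracted with GenomeStudio 2011.1 per the submitters' processing notes. Per the series' design text, a probe's detection p-value is the proportion of negative controls that outshine it. They also deposited processed intensities, which keep the order of probes within each array and served as an alternative. The build behind the probe annotation was not given in the sources used here. No per-sample column was left unused (0 columns). With bead arrays, the number of arrays limits the precision.

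From the deposited intensities, background was corrected by normal-exponential convolution, with parameters estimated through the detection p-values. An offset of 16 was added, arrays were quantile-normalized and log2 was taken. Probes were kept where detection p was under 0.05 on at least 3 of 6 arrays (22633 probes, 50%). Of all probes 34885 had 1 gene symbol, 18 several and 10378 none here. The brightest kept probe stood for each gene. Groups were compared with limma 3.58.1 in R 4.3.3 (lmFit and eBayes, 2-sided, group as the only term), with Benjamini-Hochberg adjustment over 11262 genes and a threshold of 0.05. The fit was also run on simulated data with independent noise and the same SD in both groups. That run cannot show how unequal spread between groups, or shared animals or sort days, affects the calls. All arrays share a chip, with no batch label besides position. The labels do not say whether pools shared animals or sort days. The p-values set each group difference against the spread among these pools, which shared animals or sort days could make too small.

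Members and lists were chosen with earlier results of these data known. Named were members past the threshold, those above background in 1 group alone, the 5 nearest to the threshold per direction, those whose kept probes differ in sign or by over 1, and a fixed set of well-known carriers, and, for other lists, genes past the threshold with Emb and Bsg. Any further gene was named after its values were seen. Promoter windows are RefSeq's on GRCm38.p6, and no protein sequences were used here.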

Additional observations from a re-analysis of the deposited data

How the results depend on the processing

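Of 11262 genes, 374 were called, against 593 with an intensity trend in eBayes and 139 with a replicate block, and between 58 and 361 without 1 array, with 83, 62 and 58 called without limb pool 1, 2 or 3. Without an array the fits have fewer samples, and otherwise the cause was not tested. Deviations of same-numbered pools from their group means correlated at -0.0102, -0.0132 and 0.000225, which cannot tell whether these pools shared animals or sort days. Under the replicate block 0 transporters were higher and 1 was lower. Transporters called higher numbered 1, with 0 under no background correction and with the processed values, 2 under median scaling, the trend, array weights and the mean of kept probes, and 0 to 1 without 1 array. The gene called higher was Slc1a4 and not Slc7a1 in 3 settings with 1 such call. These were an offset of 50, detection required on all 6 arrays, and the fit without pharyngeal pool 1. Transporters called lower numbered 2, with 1 where each array had to detect the probe, which removes Slc2a12, with 3 under array weights, the mean of kept probes and every kept probe, where Slc7a8 also passed, and 1 to 5 without 1 array. Median scaling moved the share of calls that were higher to 63.2%, against 51.6% in the analysis reported, and moved the median of all genes to 0.03.

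Signs changed for these genes, none of them past the threshold in any setting. Leaving out 1 array, Slc2a1 ran from -0.050 to 0.18, Slc2a4 from -0.35 to 0.53, Slc38a2 from -0.096 to 0.092, Slc38a9 from -0.25 to 0.45, Slc6a6 from -0.25 to 0.30, Slc6a8 from -0.14 to 0.11, Slc7a6 from -0.079 to 1.06, Slc7a6os from -0.33 to 0.11, and Slc7a7 from -0.18 to 0.52. Slc2a4 was -0.060 with array weights. Slc6a6 was 0.060 under median scaling, 0.00053 under cyclic loess, 0.055 with array weights, 0.62 as the mean of probes and 1.26 by its other probe. Slc6a8 was 0.15 under median scaling and 0.045 under cyclic loess, Slc7a6os 0.0049 under median scaling and 0.10 by its other probe, and Slc7a7 -0.096 as the mean of probes and -0.44 by its other probe. Of the values for single named genes under all alternatives, 508 kept direction and side of the threshold, 13 newly passed, 19 no longer passed and 27 changed sign.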
